A study of Mus musculus with 18 samples.

Results

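Gata3, Foxa1, Elf5, Ehf, Grhl2, Esrp1, Spdef, Kit, Aldh1a3 and Cd14 were followed in 18 mouse mammary tumors. These 10 genes, of 57126 in the count table, were chosen by name and not by a threshold on their values, and all 10 had a row in the table. They are luminal lineage factors, epithelial transcription and splicing regulators, and surface or enzyme markers of luminal progenitor cells. The groups compared were all from female F1 mice of BALB/c and C57BL6/J parents in which adenovirus carrying Cre recombinase had been injected into a mammary duct. The MaPR172H/- group held 7 tumors of 7 mice and carried the Trp53 R172H missense allele over a null allele. The MaPR245W/- group held 5 tumors of 5 mice and carried the R245W allele over a null allele. The MaP-/- group held 6 tumors of 4 mice in which both alleles were lost, and the mice JM663 and JM833 gave a pair of tumors each. Some missense animals (YZ2, YZ6, YZ10, JM1233, JM1564 and RM0014) also carried the Rosa26LSL-TdTomato reporter. Only ductal epithelium reached by Cre was recombined, and Trp53 in the other cells of a tumor was wild type. The ages of the mice at collection are not given in the labels. The study gives the age at injection and lists a latency after injection for each mouse, longest for JM833. Latency was not used here. All MaPR172H/- libraries were read on a HiSeq instrument and all others on a NovaSeq instrument, so instrument and genotype cannot be told apart where MaPR172H/- tumors are compared with another group. The study typed the MaPR172H/- tumors as luminal B, or HER2-enriched for YZ6, and all others as triple-negative. Subtype and genotype cannot be told apart in those comparisons either.

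The libraries held between 23113578 and 37365062 counts each. Levels are given as CPM, the counts of a gene scaled to the size of its library, after scaling by the trimmed mean of M-values (TMM). Trp53 itself ranged from 10.8 to 50.1 CPM in MaPR172H/- tumors, from 9.08 to 58.9 CPM in MaPR245W/- tumors and from 9.41 to 21.6 CPM in MaP-/- tumors. The missense tumors YZ11 at 10.8 CPM, JM1233 at 11.4 CPM and RM0014 at 9.08 CPM lay at the level of the null tumors. A gene count does not distinguish a missense from a wild-type transcript and does not check the allele.

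The mammary duct has an inner luminal and an outer basal layer. Gata3 and Foxa1 are transcription factors of the luminal lineage, with Foxa1 opening chromatin for the estrogen receptor in hormone-sensing cells. Elf5, its relative Ehf and Spdef are ETS-family factors of epithelium, and Elf5 directs the alveolar lineage that makes milk. Grhl2 is a Grainyhead factor that maintains epithelial junctions, and Esrp1 is an RNA-binding protein that sets the epithelial splicing pattern. The receptor tyrosine kinase Kit, the retinaldehyde dehydrogenase Aldh1a3 and the lipopolysaccharide co-receptor Cd14 are used as markers of luminal progenitors, although Kit is also made by mast cells and Cd14 by macrophages.

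Per kilobase of exon, the order of the median levels over the 18 tumors was Cd14 (79.2 CPM per kb), Ehf (78.8), Kit (24.7), Esrp1 (18.4), Elf5 (13.8), Grhl2 (13.8), Aldh1a3 (9.33), Gata3 (4.27), Spdef (0.581) and Foxa1 (0.374). The ranges over tumors of each pair of neighbors in this order overlapped. Tumors of 1 genotype differed widely in these genes. The standard deviation of log2(CPM + 1) within groups ran from 1.03 for Foxa1 to 2.02 for Aldh1a3, against a median of 0.393 over all genes kept, which placed the 10 genes between percentiles 90.8 and 99.5 of that measure. Bulk RNA does not tell fewer epithelial cells from less RNA per cell.

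**Figure D1:**
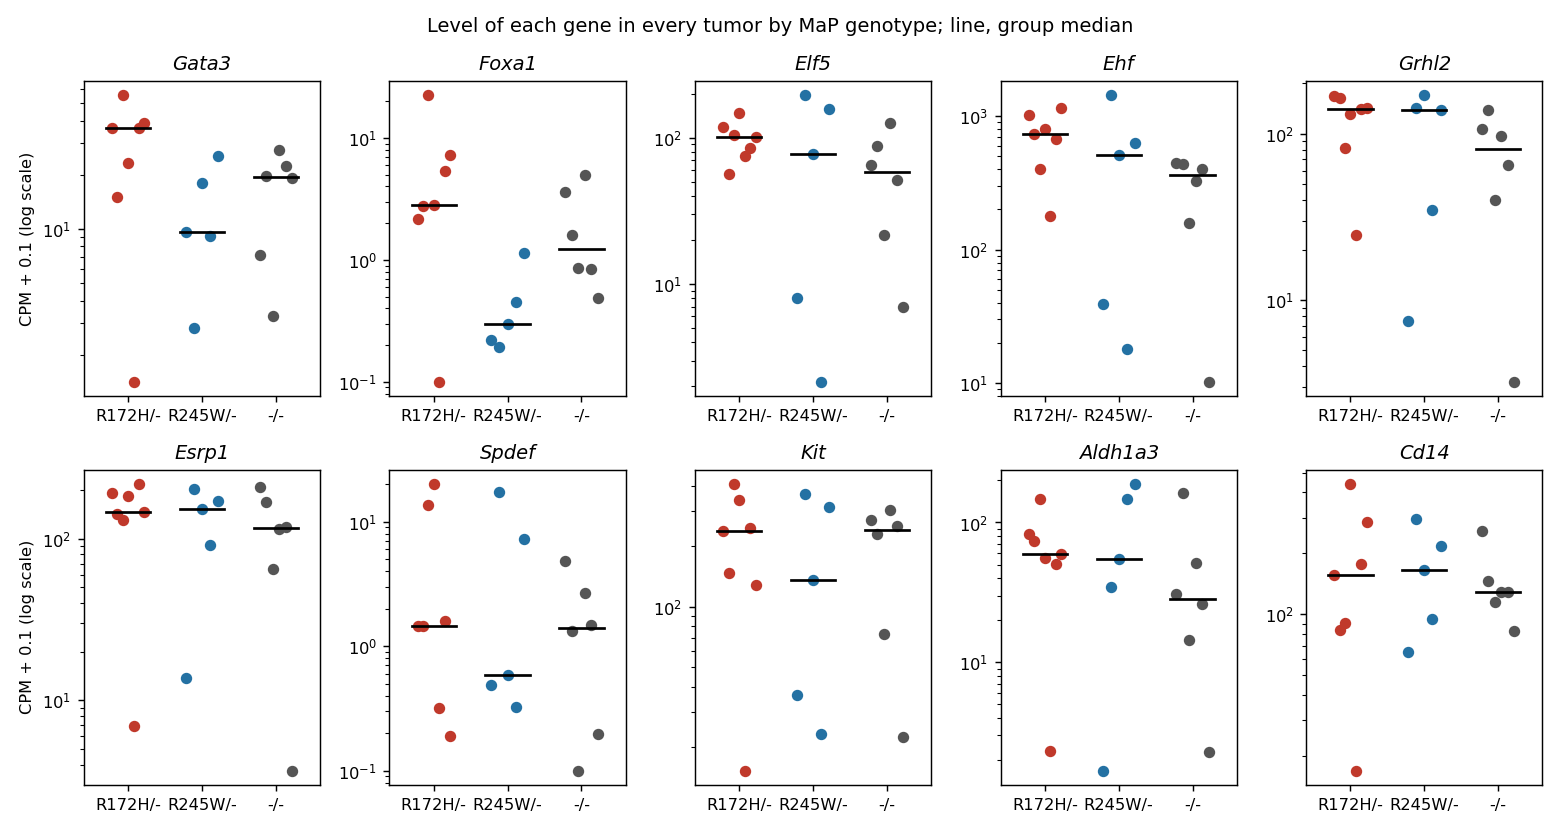
Each panel plots 1 gene, with a point for each tumor, CPM plus 0.1 on a log axis, and a line at the median of each genotype group. For Foxa1, 6 of 7 MaPR172H/- tumors lie above all 5 MaPR245W/- tumors and 1 has no count, and for every gene the groups overlap.

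Foxa1, the pioneer factor of hormone-sensing luminal cells, was the one member past the threshold in any comparison. Its level in MaPR172H/- tumors was 2.07 CPM in YZ2, 2.68 in YZ3, 22.2 in YZ4, 2.73 in YZ6, 5.21 in YZ10 and 7.17 in YZ11, while YZ7 had 0 counts, which allows up to 0.132 CPM (3 counts, a limit that covers counting error only). In MaPR245W/- tumors it was 0.119 CPM in JM1233, 0.0926 in JM1564, 0.201 in RM0014, 0.351 in JM1126 and 1.03 in JM1133, resting on 3 to 27 counts. In MaP-/- tumors it ran from 0.387 to 4.89 CPM with a median of 1.12. Of the 7 MaPR172H/- tumors, 6 lay above every MaPR245W/- tumor, and YZ7, without a count, lay at the low end of their range.

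In the direct comparison of the missense genotypes, Foxa1 was higher in MaPR172H/- tumors by a log2 fold change of 4.07 (SE 1.13, 95% interval 1.70 to 6.45), with an FDR of 0.0305 in edgeR's quasi-likelihood test over 22481 genes. No other member passed an FDR of 0.05 in this comparison, where 9.4% of all genes passed in either direction, 2.91% as higher and 6.49% as lower in MaPR172H/- tumors. A fit of the 12 missense tumors alone gave an FDR of 0.0557. The FDR also rose above the threshold without YZ4 (0.0611), JM1233 (0.0653), JM1564 (0.0658), RM0014 (0.0739) or JM1126 (0.0666), and fell to 0.00669 without YZ7. The log2 fold change itself was 3.21 without YZ4 and 4.95 without JM1133, and 3.83 to 4.09 without each of the 4 MaPR245W/- tumors that ended the call. Of the skeletal muscle markers, 4 of 4 tested genes were also lower in MaPR172H/- tumors. The muscle sum was 841 CPM in JM1233, 154 in JM1133 and 35.5 in JM1126, while JM1564 (5.71 CPM) and RM0014 (2.55 CPM) lay within the MaPR172H/- range of 1.80 to 12.8 CPM. The macrophage genes Ccr2, Lyz2 and Adgre1, the fibroblast gene Lum and the Cd14 partner Tlr4 were lower as well. The calls of Ccr2, Lyz2, Adgre1 and Myh4 ended without JM1233 (FDR 0.229, 0.0683, 0.138 and 0.117), and those of Lum and Tlr4 without JM1126 (FDR 0.193 and 0.0763). Counting every tumor whose removal ended the call, there were 14 for Ccr2, 7 for Lum, 5 for Myh4, 4 for Adgre1 and 1 each for Lyz2 and Tlr4. The part of these cell types in the Foxa1 difference was not tested. Against MaP-/- tumors, Foxa1 had a log2 fold change of 1.65 (95% interval -0.41 to 3.71, FDR 0.306) in MaPR172H/- tumors, and of 0.75 without YZ4. In MaPR245W/- tumors it had a log2 fold change of -2.47 (95% interval -4.27 to -0.68, FDR 0.36 in edgeR and 0.074 in DESeq2).

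Gata3, which specifies and maintains luminal cells, was measured at 1.32 to 55.1 CPM in MaPR172H/- tumors, with a median of 36.3 CPM. It was 9.56 CPM in JM1233, 2.72 in JM1564, 17.9 in RM0014, 9.10 in JM1126 and 25.4 in JM1133. MaP-/- tumors ran from 3.19 to 27.5 CPM with a median of 19.4 CPM. Of the MaPR172H/- tumors, YZ2, YZ4, YZ10 and YZ11 lay above every tumor of the other genotypes and YZ7 lay below every one. The log2 fold change of MaPR172H/- against MaPR245W/- tumors was 1.19 (95% interval -0.23 to 2.61, FDR 0.28), and against MaP-/- tumors it was 0.86 (95% interval -0.49 to 2.21, FDR 0.423). Spdef, an ETS factor of secretory epithelium, spanned 0.0902 to 19.9 CPM in MaPR172H/- tumors, 0.223 to 17.2 CPM in MaPR245W/- tumors and 0 to 4.70 CPM in MaP-/- tumors. The null tumor without a Spdef count, JM663-T2, allows up to 0.0987 CPM (3 counts). The highest Spdef levels were in single tumors of both missense genotypes, YZ4 (13.5 CPM), YZ6 (19.9 CPM), JM1564 (17.2 CPM) and JM1133 (7.21 CPM), and groups overlapped. Its log2 fold change against MaP-/- tumors was 1.75 (95% interval -0.89 to 4.39, FDR 0.403) in MaPR172H/- and 1.61 (95% interval -1.22 to 4.44, FDR 0.636) in MaPR245W/- tumors, and fell to 0.90 without YZ6 and to 0.31 without JM1564.

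Elf5, the alveolar lineage factor, was measured at 56.5 to 148 CPM in MaPR172H/- tumors with a median of 100.3 CPM. It was 7.86 CPM in JM1233, 194 in JM1564, 77.8 in RM0014, 2.04 in JM1126 and 156 in JM1133, and MaP-/- tumors ran from 6.88 to 127 CPM with a median of 58.4. The lowest and the highest values of all 18 tumors both fell in the MaPR245W/- group. Ehf, which lies 108 kb from Elf5 on chromosome 2, was also low in JM1233, JM1126 and JM779-T1. Its range was 179 to 1161 CPM in MaPR172H/- tumors (median 737 CPM) and 10.1 to 448 CPM in MaP-/- tumors (median 363 CPM). Ehf was 39.3 CPM in JM1233, 1433 in JM1564, 508 in RM0014, 17.9 in JM1126 and 630 in JM1133. Of the MaPR172H/- tumors, YZ2, YZ3, YZ6, YZ10 and YZ11 lay above all null tumors. The log2 fold change of Ehf in MaPR172H/- against MaP-/- tumors was 1.29 (95% interval -0.03 to 2.62, FDR 0.215), and that of Elf5 was 0.74 (95% interval -0.30 to 1.78, FDR 0.363).

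Grhl2 and Esrp1, the junction and splicing regulators, were low in single tumors of each genotype. Grhl2 was measured at 24.5 to 168 CPM in MaPR172H/- tumors (median 141 CPM) and 3.13 to 139 CPM in MaP-/- tumors (median 80.3 CPM). In MaPR245W/- tumors it was 7.41 CPM in JM1233, 142 in JM1564, 169 in RM0014, 34.7 in JM1126 and 138 in JM1133. Esrp1 was 6.84 CPM in YZ7 and between 131 and 217 CPM in the other 6 MaPR172H/- tumors. It was 13.6 CPM in JM1233, 202 in JM1564, 153 in RM0014, 91.5 in JM1126 and 171 in JM1133. In MaP-/- tumors Esrp1 ran from 3.58 CPM in JM779-T1 to 208 CPM in JM836-T1. The groups overlapped for both genes. For Grhl2, the tumors YZ2, YZ3, YZ10, YZ11, JM1564 and RM0014 lay above every MaP-/- tumor, and for Esrp1 only YZ10 did. Against MaP-/- tumors, the log2 fold change in MaPR172H/- tumors was 0.73 for Grhl2 (95% interval -0.56 to 2.02, FDR 0.479) and 0.40 for Esrp1 (95% interval -1.11 to 1.90, FDR 0.771). The counts are per gene, and the isoforms that Esrp1 acts on were not analysed here.

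Ehf, Grhl2 and Esrp1 had the closest levels across tumors among the epithelial regulators, and Kit and Spdef formed the closest pair of all. The 250 bases before the start of the canonical transcript are printed for Esrp1 and Kit as members of these sets, and for Foxa1 as the member past the threshold. They are on GRCm39 with GENCODE M39 starts, at chr4:11386876-11387125 (minus strand), chr5:75735326-75735575 (plus strand) and chr12:57592945-57593194 (minus strand), each written 5′ to 3′ on the strand of its gene. Capitals mark matches to the motifs searched.
Esrp1: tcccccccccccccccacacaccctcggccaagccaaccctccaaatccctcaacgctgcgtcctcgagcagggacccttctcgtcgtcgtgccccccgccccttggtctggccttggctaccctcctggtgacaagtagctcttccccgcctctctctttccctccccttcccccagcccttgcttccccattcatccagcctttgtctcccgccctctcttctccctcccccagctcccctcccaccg
Kit: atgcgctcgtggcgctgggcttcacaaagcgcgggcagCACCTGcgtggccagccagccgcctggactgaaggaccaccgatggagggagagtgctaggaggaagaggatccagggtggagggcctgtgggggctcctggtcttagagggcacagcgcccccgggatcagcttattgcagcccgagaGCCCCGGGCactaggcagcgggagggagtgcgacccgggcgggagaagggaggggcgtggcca
Foxa1: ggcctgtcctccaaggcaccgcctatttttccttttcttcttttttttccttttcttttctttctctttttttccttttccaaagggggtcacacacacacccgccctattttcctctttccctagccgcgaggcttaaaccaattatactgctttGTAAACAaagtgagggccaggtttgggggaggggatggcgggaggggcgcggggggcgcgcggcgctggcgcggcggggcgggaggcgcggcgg

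Both strands were searched for 7 motifs in the windows of 7 members, Gata3, Foxa1, Elf5, Esrp1, Spdef, Kit and Aldh1a3. CAGGTG, the E-box bound by Zeb and Snail repressors, occurred in Kit alone of these, at positions -212 to -207 from the start, and in 17.7% of 21770 protein-coding promoters of the same length. GCCNNNGGC, an AP-2 motif, occurred in Gata3 and Kit and in 13.2% of promoters, and the Kit match did not overlap its E-box. The Gata3 window, unlike the others, crosses annotated exons, of Gata3 itself and of the long noncoding RNA gene Gm13256 on the other strand. TGTTTAC, a forkhead motif, occurred in Foxa1 alone of the 7 members, at -94 to -88, and in 2.72% of promoters. The Grainyhead letters AACCNGTT (1.79% of promoters), the ETS letters CCGGAAGT (2.64%), the GATA letters AGATAA (9.6%) and the Nr5a2 letters CAAGGTCA (1.37%) were in none of the 7 windows. A match is a description of the letters and not a measured site.

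Kit, Aldh1a3 and Cd14, the luminal progenitor markers, overlapped between all 3 genotypes. Kit was measured at 15.1 to 410 CPM in MaPR172H/- tumors (median 239 CPM) and 22.3 to 303 CPM in MaP-/- tumors (median 241 CPM). In MaPR245W/- tumors Kit was 36.4 CPM in JM1233, 366 in JM1564, 136 in RM0014, 23.01 in JM1126 and 314 in JM1133. The log2 fold change of Kit was 0.22 (95% interval -1.14 to 1.57, FDR 0.864) in MaPR172H/- and -0.15 (95% interval -1.82 to 1.53, FDR 0.953) in MaPR245W/- against MaP-/- tumors. Aldh1a3 was measured at 2.24 to 147 CPM in MaPR172H/- tumors and 2.16 to 163 CPM in MaP-/- tumors. It was 1.58 CPM in JM1233, 34.5 in JM1564, 54.8 in RM0014, 147 in JM1126 and 188 in JM1133, so the highest and the lowest of the 18 tumors were both MaPR245W/-. Its log2 fold change against MaP-/- tumors was 0.53 (95% interval -1.22 to 2.28, FDR 0.729) in MaPR172H/- and 0.82 (95% interval -1.42 to 3.06, FDR 0.767) in MaPR245W/- tumors, and without JM663-T1 it was 1.47 and 1.76. Cd14 was 16.8 CPM in YZ7 and between 64.8 and 439 CPM in the other 17 tumors. The Cd14 log2 fold change was 0.34 (95% interval -0.80 to 1.49, FDR 0.731) in MaPR172H/- and 0.22 (95% interval -0.63 to 1.07, FDR 0.838) in MaPR245W/- against MaP-/- tumors.

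Kit and Cd14 were set beside markers of the immune cells that also make them. The 8 mast cell markers summed to 84.5 CPM in JM833-T1, the highest tumor, led by Cma1 at 21.3 CPM, and Kit there was 303 CPM. The sum was lowest in JM1564, at 1.08 CPM with Mcpt4, Cma1 and Fcer1a at 0 counts, where Kit was 366 CPM. In YZ7 the sum was 1.89 CPM with Fcer1a and Ms4a2 at 0 counts, and Kit was 15.1 CPM. The 8 macrophage and monocyte markers summed to 6831 CPM in JM1233, led by Lyz2 at 3823 CPM, and Cd14 there was 64.8 CPM, the second lowest. YZ6 had the highest Cd14, 439 CPM, with a macrophage sum of 758 CPM, within its group's range of 572 to 901 CPM. The part of these immune cells in the Kit and Cd14 levels was not tested. The Kit ligand, retinaldehyde dehydrogenase and Cd14 partner list had 1 of 8 genes lower and 0 higher in MaPR172H/- against MaP-/- tumors, where 4.73% of all genes were lower and 3.67% higher, so nothing is read from the count of the list. The gene was Tlr4, the signaling receptor that Cd14 serves, with a log2 fold change of -0.99 (SE 0.24, FDR 0.0217). Tlr4 was measured at 22.0 to 61.5 CPM in MaPR172H/- and 59.8 to 137 CPM in MaP-/- tumors, so YZ11 alone of its group reached the null range, and the call ended without JM663-T2 (FDR 0.0528). Lbp (0.92, FDR 0.461) and Aldh1a2 (0.27, FDR 0.843) were the highest of the list, and Aldh1a1 (-1.07, FDR 0.46) was the lowest.

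**Figure D2:**
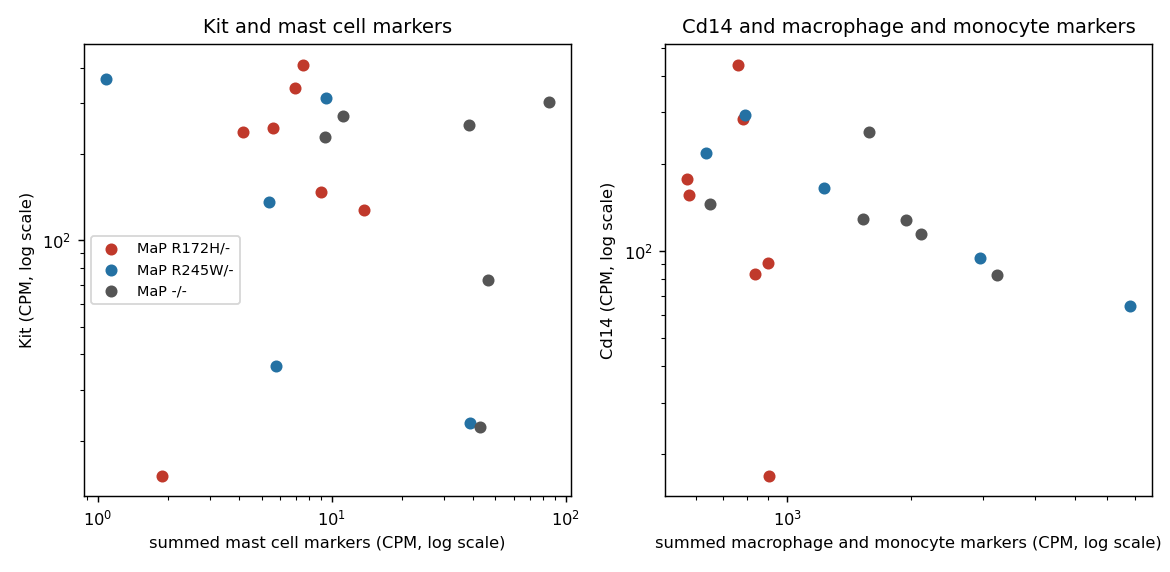
The left panel plots Kit against the summed mast cell markers and the right panel Cd14 against the summed macrophage and monocyte markers, in CPM on log axes, with a point for each tumor colored by genotype. The tumor with the lowest mast cell sum (1.08 CPM) had a Kit level of 366 CPM, and the tumor with the highest macrophage sum (6831 CPM) had a Cd14 level of 64.8 CPM.

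Set against MaP-/- tumors, all 10 members had a log2 fold change above 0 in MaPR172H/- tumors, and none passed an FDR of 0.05 where 8.4% of 20954 genes did (3.67% higher and 4.73% lower). Kit and Cd14 changed sign when single tumors were left out. The median of the members was 0.74, and that of all genes was 0.00 with 50.2% of genes above 0. In MaPR245W/- against MaP-/- tumors, 7 of 10 members were above 0 with a median of 0.30, against 0.02 over all genes. No gene of 21452 passed there in edgeR (0% called), although 2527 had an unadjusted p under 0.05 and DESeq2 called 424 genes, none of them a member. Both comparisons share the 6 null tumors, and the 10 members are not independent of each other. MaPR172H/- against MaPR245W/- tumors gave 9 of 10 members above 0 and a median of 0.26, with Aldh1a3 at -0.34 (95% interval -2.30 to 1.62, FDR 0.854). The widest interval there was that of Spdef, from -2.66 to 2.84, so a difference of several-fold either way was not detectable at this spread.

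**Figure D3:**
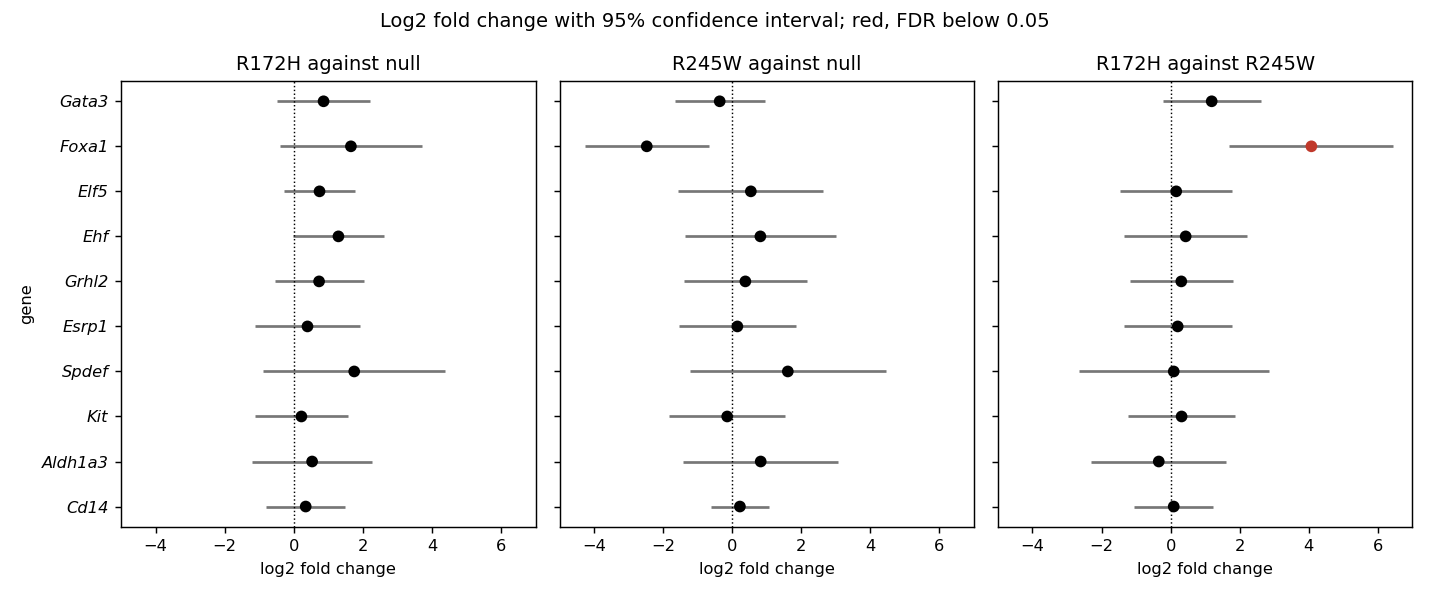
Points are edgeR log2 fold changes of the 10 genes in each of the 3 comparisons and lines are 95% confidence intervals, with red for an FDR below 0.05. Foxa1 in MaPR172H/- against MaPR245W/- tumors, at 4.07, is the one red point.

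A few tumors were low in several members at once. A level under 25% of the median of the 18 tumors was found for 8 members in YZ7 (MaPR172H/-), 7 in JM1233 (MaPR245W/-), 7 in JM779-T1 (MaP-/-) and 4 in JM1126 (MaPR245W/-), and for at most 2 in any other tumor. These tumors differed in which members were low. YZ7 had Elf5 at 74.5 CPM, close to the median of the 18 tumors, and Ehf at 179 CPM, below its median, while Gata3 was 1.32 CPM, Esrp1 6.84 CPM, Kit 15.1 CPM and Aldh1a3 2.24 CPM. Its 6 epithelial markers summed to 302 CPM against 2356 to 9604 CPM in the other MaPR172H/- tumors, its 8 basal markers summed to 2144 CPM led by Acta2 at 1149 CPM (YZ4 was higher, at 3509 CPM), and Sox10, a neural crest and luminal progenitor factor, was 607 CPM, the highest of the 18. JM1126 was low in Kit too, at 23.01 CPM, but had Elf5 at 2.04 CPM and Ehf at 17.9 CPM beside Esrp1 at 91.5 CPM, Aldh1a3 at 147 CPM and an epithelial sum of 4356 CPM. JM1233 and JM779-T1 were low in both sets, with epithelial sums of 454 and 144 CPM. Gata3 was still 19.2 CPM in JM779-T1 and 9.56 CPM in JM1233. JM1564 had Gata3 at 2.72 CPM and Foxa1 at 0.0926 CPM together with the highest Elf5 (194 CPM) and Ehf (1433 CPM) of all tumors.

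**Figure D4:**
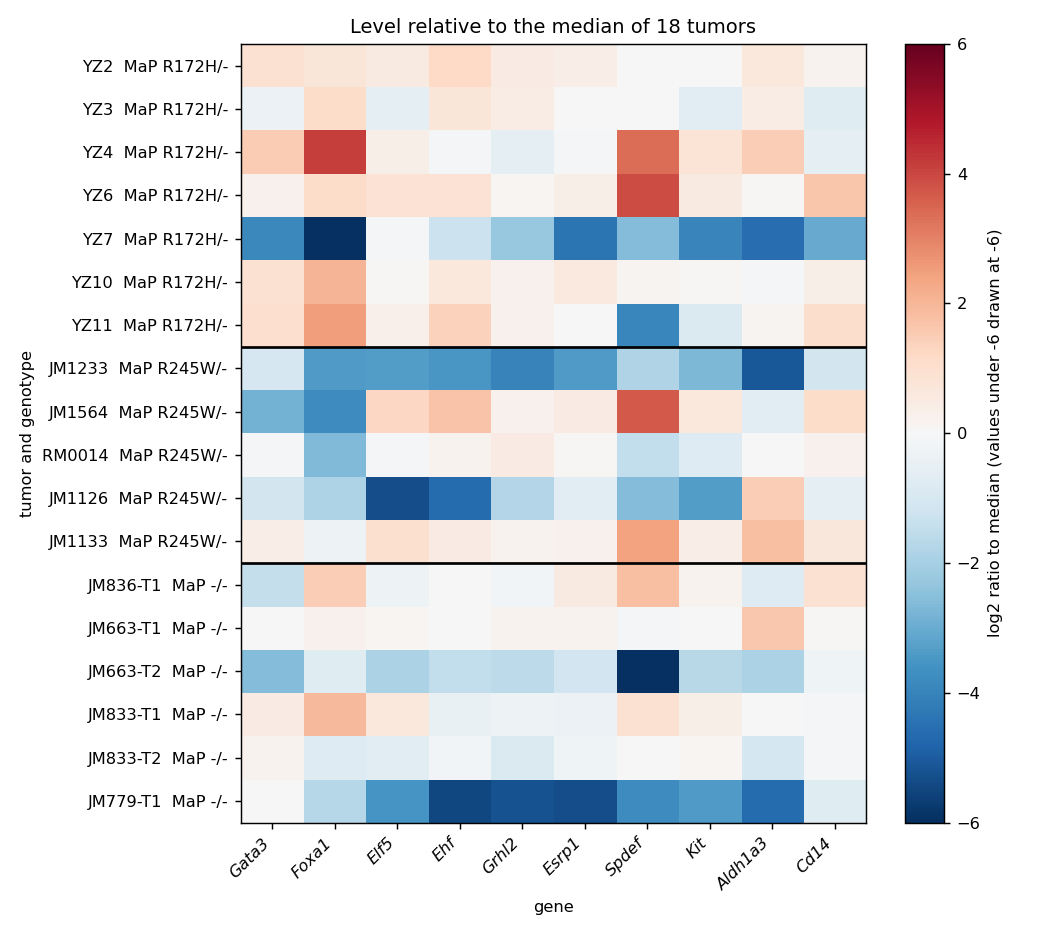
Rows are tumors with their genotype, columns are the 10 genes, and color is the log2 ratio of a level to the median of the 18 tumors, drawn at -6 where lower. The rows YZ7, JM1233 and JM779-T1 are blue across most genes, with Elf5 near the median in YZ7 and Gata3 near it in JM779-T1.

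Single related genes were also low in these tumors. Esrp2, the paralog of Esrp1, was 8.24 CPM in YZ7, 5.92 CPM in JM1233 and 2.49 CPM in JM779-T1, and Epcam was 24.5, 34.7 and 10.2 CPM in them. Cdh1, which encodes E-cadherin, was 40.2 CPM in JM1233 and 8.10 CPM in JM779-T1 and 215 CPM in YZ7, the lowest of the MaPR172H/- tumors, whose median was 504 CPM, against a median of 203 CPM in MaP-/- tumors. Zeb1, a repressor of epithelial genes picked out after its values were seen, was 131 CPM in YZ7, 202 in JM1233, 145 in JM779-T1, 143 in JM663-T2 and 82.6 in JM1126, and at most 65.5 CPM in the other 13 tumors. Across the lists of related genes, none of the 9 tested Grainyhead, Ovo and related factors passed in MaPR172H/- against MaP-/- tumors, and all 9 lay above 0 (median 0.81). Elf3 (1.3, FDR 0.332; 0.36 without YZ11) and Ovol1 (1.17, FDR 0.291) had the largest values of that list with all tumors and Klf5 (0.15, FDR 0.882) and Grhl1 (0.34, FDR 0.773) the smallest. Both epithelial splicing regulators were above 0 and missed the threshold, Esrp2 at 0.98 (FDR 0.324) and Rbm47 at 0.10 (FDR 0.921). Of the 7 mesenchymal and general splicing regulators 1 was above 0, Ptbp1 at 0.57 (FDR 0.0818), and Celf2 was lowest at -0.60 (FDR 0.252), with Mbnl2 at -0.29 (FDR 0.441) and Qki at -0.07 (FDR 0.895). All 21 epithelial junction and membrane genes were above 0 with a median of 1.06 and none passed. Without YZ7 4 did, in a fit where 827 of 20716 genes were higher and 1039 lower. With all tumors, Cldn3, a tight-junction claudin, at 2.45 (FDR 0.0834) and Tjp3 at 1.80 (FDR 0.0818) were highest. Ap1m2 at 0.42 (FDR 0.762) and Marveld2 at 0.54 (FDR 0.685) were lowest. Of 10 genes for epithelial-mesenchymal transition 1 was lower (4.73% of all genes were), Twist2 at -4.23 (SE 0.96, FDR 0.0157; -2.44 without JM779-T1), and the median was -0.60. Prrx1 was next lowest at -1.73 (FDR 0.0983), and Snai2 at 0.73 (FDR 0.587) and Snai1 at 0.44 (FDR 0.66) were highest.

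Of the 15 luminal transcription factors 1 was lower and none higher in MaPR172H/- against MaP-/- tumors, a share near the 4.73% of all genes called lower, so nothing is read from the count of the list. Cebpb, a factor of alveolar differentiation and of inflammatory cells, had a log2 fold change of -1.55 (SE 0.34, FDR 0.0143), and its range was 4.74 to 26.5 CPM against 27.8 to 67.5 CPM, so these groups did not overlap (4.63% of genes did not). Pgr, the progesterone receptor, was 81.3 CPM in YZ4 and at most 2.93 CPM in the other MaPR172H/- tumors. Its log2 fold change was 2.20 (FDR 0.304) against MaP-/- tumors and 4.48 (FDR 0.0484) against MaPR245W/- tumors. Without YZ4 these values were -0.76 and 1.59 (FDR 0.211), and the call of Pgr ended without any of 12 tumors. Cited1, a luminal co-regulator, was at 1.87 (FDR 0.321; 1.18 without YZ7 and 3.29 without JM833-T1) and Tbx3 at -0.59 (FDR 0.706). YZ4 was also the tumor with the highest Foxa1. Among the 9 hormone-sensing luminal markers Tnfsf11, a cytokine induced by progesterone, was lower against MaP-/- tumors at -3.65 (FDR 0.0121; -2.51 without JM779-T1), 0 were higher, and Areg was at -0.73 (FDR 0.693). In MaPR172H/- against MaPR245W/- tumors, where Foxa1 passed, 2 of the 9 were higher. These were Pgr and the secreted signal Wnt4 (3.36, FDR 0.0357), and Tnfsf11 was lower (-3.48, FDR 0.0332). Cebpb, of the luminal transcription factors and the alveolar markers, was lower there too. Over all genes of that comparison 2.91% were higher and 6.49% lower, so a single call in a list is not read as a result. The calls of Wnt4 and Tnfsf11 there each ended without any of 7 tumors, with Wnt4 at 2.74 without YZ4 and Tnfsf11 at -1.64 without JM1126. In MaPR172H/- against MaP-/- tumors, Cebpb alone of the 11 alveolar luminal markers passed. Sox10 had a log2 fold change of 2.01 (FDR 0.0606), Gabrp of 1.498 (FDR 0.348) and Csn2 of -1.94 (FDR 0.254). The 8 basal and myoepithelial markers were all above 0 with a median of 2.49 and none passed, although Krt14 did without JM663-T2 (2.83, FDR 0.0417), Oxtr at 3.30 (FDR 0.162) and Krt17 at 3.19 (FDR 0.0975) being highest and Myh11 at 1.19 (FDR 0.525) and Krt14 at 1.20 (FDR 0.424) lowest. Without YZ4, Krt14 was at 0.70, Krt17 at 1.47 and Oxtr at 2.39, and without YZ7 Myh11 was at 0.37.

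Markers of other cell types moved with the same contrast. In MaPR172H/- against MaP-/- tumors 4 of 8 macrophage and monocyte genes were lower (Mrc1, Ccr2, Lyz2 and Adgre1), as were 3 of 5 tested neutrophil genes (S100a8, S100a9 and Retnlg), 2 of 5 tested mast cell genes (Hdc and Cpa3), 3 of 7 fibroblast genes (Fap, Pdgfra and Lum), 1 of 8 T cell and innate lymphoid genes (Il1rl1) and 1 of 5 endothelial genes (Pecam1). None of these lists had a higher gene, against 4.73% of all genes called lower, so the lists with 1 gene called are not read as a result. Of these genes, Il1rl1 had a log2 fold change of -8.50 (FDR 0.0126), S100a9 of -3.66 (FDR 0.0117), Cpa3 of -3.53 (FDR 0.0452) and Retnlg of -3.46 (FDR 0.00467). Il1rl1 was 3710 CPM in JM779-T1, and its value was -6.03 without that tumor. Cpa3 was 20.7 CPM in JM833-T1, and its value was -2.41 (FDR 0.114) without that tumor. Pdgfra moved from -2.49 to -1.38 without JM779-T1. The calls of Mrc1 and S100a8 ended without JM663-T2 (FDR 0.0526 and 0.0602), that of Pdgfra without YZ2 (FDR 0.0556), and those of Lum, Hdc and Cpa3 without any of 3, 7 and 9 tumors. The other named members of these lists missed the threshold, with Cd68 at -0.05, Ly6c2 at -0.48, Csf3r at -1.34, Cxcr2 at -2.38, Tpsb2 at -2.42, Cma1 at -2.93, Il7r at -0.36, Trac at -0.65, Cd3g at -1.25, Col1a1 at 0.64, Pdgfrb at 0.10, Dcn at -2.17, Cdh5 at -0.09, Kdr at -0.25 and Tek at -0.94. The macrophage sum ran from 572 to 901 CPM in MaPR172H/- tumors and from 650 to 3242 CPM in MaP-/- tumors. The epithelial sum ran from 302 to 9604 CPM in the former and from 144 to 2837 CPM in the latter, with all 6 genes above 0, none passing and a median log2 fold change of 1.33, from 0.99 for Cdh1 and 1.12 for Epcam to 1.68 for Krt7 and 2.13 for Krt19. The 5 adipocyte genes and the 4 tested skeletal muscle genes gave no call, with medians of -3.61 and 0.80. Fabp4 was at -3.62, Lep at -4.59, Plin1 at -3.002 and Cfd at -1.99. The adipocyte sum was 3848 CPM in JM833-T1 and at most 389 CPM in the other null tumors, and without JM833-T1 the values were -1.31 for Fabp4, -1.44 for Lep, 0.28 for Plin1 and 0.86 for Cfd, while Fabp4 passed without YZ4 (-4.57, FDR 0.036). Of the muscle genes, Myh4 was at 1.85, Acta1 at 1.46, Mylpf at 0.14 and Tnnt3 at -0.65. The part of cell composition in the members' values was not tested.

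The paired tumors of 1 mouse differed too. In JM663 all 10 members were higher in T1 than in T2, with Aldh1a3 at 163 against 14.3 CPM (11.4-fold), Gata3 at 19.7 against 3.19 CPM (6.17-fold) and Cd14 at 145 against 115 CPM (1.27-fold). In JM833, 8 of 10 members were higher in T1, with Foxa1 at 4.89 against 0.741 CPM, while Ehf (326 against 400.5 CPM) and Esrp1 (114 against 119 CPM) were slightly lower. Each tumor is a single library, so these ratios have no replicate error.

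Histology was taken from the study's list of tumors and not from the labels, so it was compared without a test. It covered 16 tumors, 9 nonmetaplastic (7 MaPR172H/- and 2 MaPR245W/-) and 7 metaplastic (3 MaPR245W/- and 4 MaP-/-). The names of the other 2, JM836-T1 and JM779-T1, do not match the tumors marked as sequenced in that list. With those 2 left out, the median of all 10 members was higher in the nonmetaplastic tumors and the ranges overlapped. Placing the 2 tumors by the names in that list turned the order of the medians for Kit (193 CPM in nonmetaplastic and 241 in metaplastic tumors) and Cd14 (126 and 137 CPM), and placing them by the names in the labels turned it for Gata3 (19.0 and 19.4 CPM). Ehf had a median of 737 CPM (17.9 to 1433) in nonmetaplastic and 400.5 CPM (39.3 to 630) in metaplastic tumors, and Foxa1 had medians of 2.68 and 0.757 CPM. The medians were 23.1 and 19.7 CPM for Gata3, 100.3 and 77.8 for Elf5, 141 and 96.3 for Grhl2, 146 and 119 for Esrp1, 1.34 and 1.23 for Spdef, 239 and 230 for Kit, 59.7 and 51.5 for Aldh1a3, and 156 and 129 for Cd14. Since the metaplastic set holds no MaPR172H/- tumor and 7 of the 9 nonmetaplastic tumors are MaPR172H/-, histology and genotype cannot be told apart here.

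Within MaPR245W/- tumors, which hold both classes, the levels of the classes overlapped for every member but Gata3. Gata3 was lower in the nonmetaplastic JM1564 (2.72 CPM) and JM1126 (9.10 CPM) than in the metaplastic JM1233 (9.56), RM0014 (17.9) and JM1133 (25.4). That order was opposite to the medians of the 16 tumors. The share of all genes that separate these 2 and 3 tumors was not computed, so nothing is read from the order of Gata3. The nonmetaplastic sarcoma JM1126 had the lowest Elf5 and Ehf of the group, and the nonmetaplastic adenocarcinoma JM1564 had the highest of the 18. The metaplastic sarcomatoid carcinomas split likewise, with JM1233 at 39.3 CPM of Ehf and RM0014 and JM1133 at 508 and 630 CPM. Grhl2 was 7.41 CPM in JM1233 and 169 and 138 CPM in the other two. YZ7, the lowest MaPR172H/- tumor for all members but Elf5 and Spdef, is listed as a nonmetaplastic adenocarcinoma like the rest of its group.

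**Figure D5:**
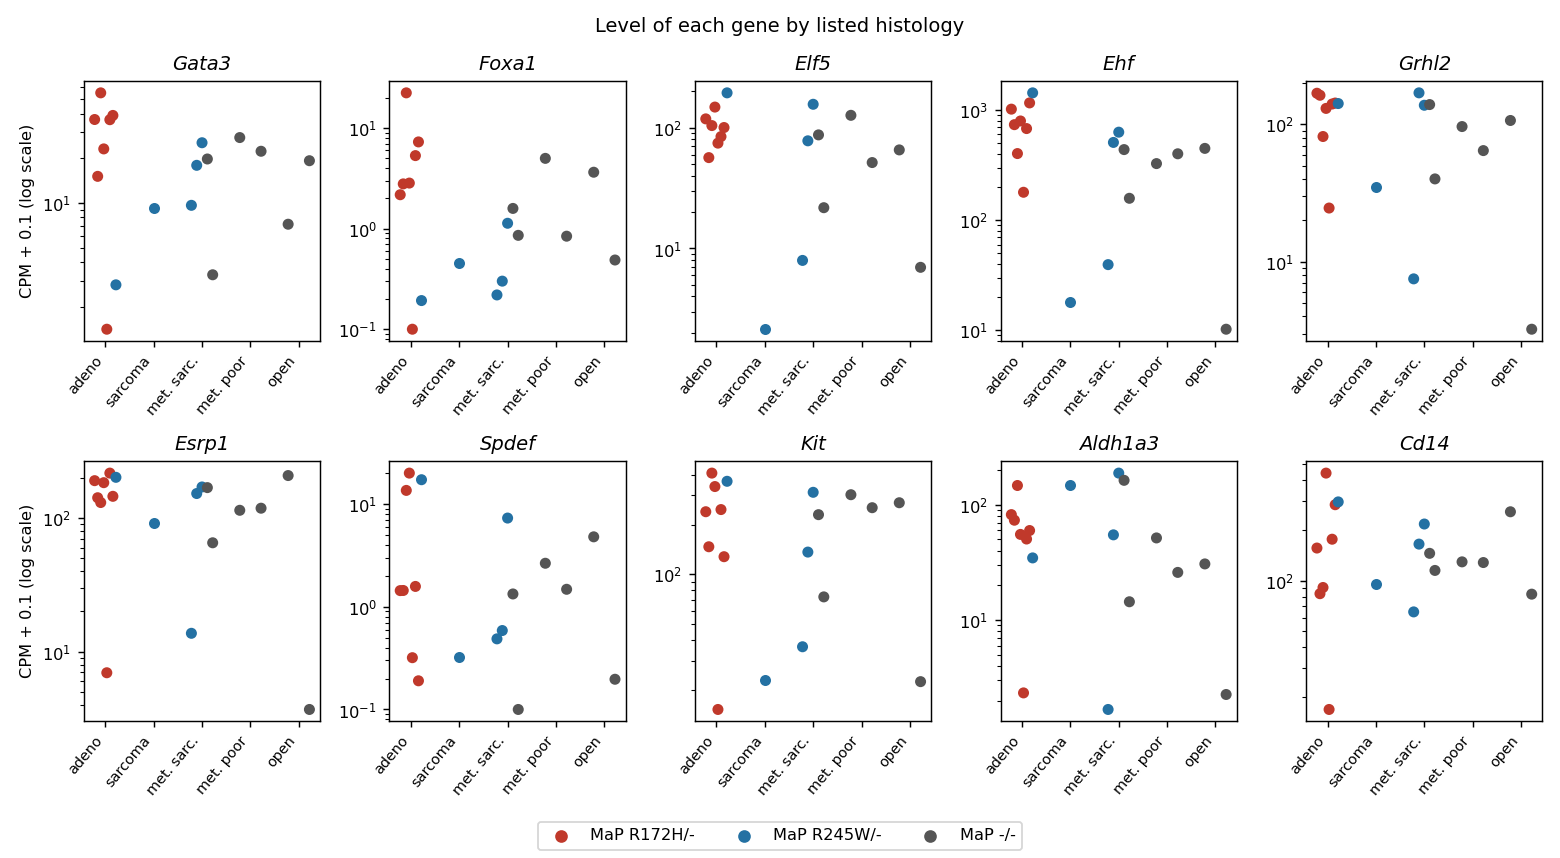
Each panel plots 1 gene, with a point for each tumor colored by genotype, CPM plus 0.1 on a log axis, and the listed histology on the x axis (adeno, nonmetaplastic adenocarcinoma; sarcoma, nonmetaplastic sarcoma; met. sarc., metaplastic sarcomatoid carcinoma; met. poor, metaplastic poorly differentiated carcinoma; open, not assigned). The 3 MaPR245W/- sarcomatoid carcinomas spread from 39.3 to 630 CPM for Ehf.

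The likeness of the members to each other was described by Spearman's rho of their levels over the 18 tumors, which include pairs from 1 mouse and libraries of both instruments. Over the 45 pairs rho ran from 0.26 to 0.93 with a median of 0.48, and 20 pairs were above 0.5. Spdef and Kit were closest (0.93 over all, 0.89 in the 7 HiSeq and 0.94 in the 11 NovaSeq libraries), followed by Ehf and Grhl2 (0.87, 0.75 and 0.92), Esrp1 and Cd14 (0.83, 0.68 and 0.95) and Ehf and Esrp1 (0.81, 0.54 and 0.90). Gata3 was closest to Foxa1 (0.75, 0.79 and 0.50), and Gata3 and Ehf were at 0.34 over all and -0.04 in the NovaSeq libraries. Within 1 instrument several pairs fell below 0. In the HiSeq libraries, all MaPR172H/-, Spdef was at -0.25 with both Ehf and Grhl2, against 0.48 and 0.29 over all. Of 15197 protein-coding genes, those with the levels nearest to each member were ranked by the same measure. Foxa1 was nearest to Ttc6 (0.96), whose gene lies 17.2 kb away on chromosome 12 on the other strand, then Muc20 and Atp13a5. Grhl2 was nearest to Sertad4, Epcam (0.91) and Epn3, Esrp1 to Cobl, Lrrc1 and Avl9, Ehf to Golga1, Trim44 and Dact2, and Elf5 to Mansc1, Mgst1 and Ppip5k1. Gata3 was nearest to Muc15, Rxra and Tgm2, Spdef to Kit, Arhgap44 and Atp6v1b1, and Kit to Spdef, Arhgap44 and Mab21l3. Aldh1a3 was nearest to R3hdm4, Sfrp1 and Hk1, and Cd14 to Grhl1 (0.91), Kif16b and Abhd5.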

How the data were processed

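Total RNA of 18 tumors was depleted of ribosomal RNA and sequenced as stranded paired-end libraries. After quality checks with FastQC 0.11.9, the authors used STAR 2.7.10b and the GRCm39 genome for alignment, and the counts deposited by the authors are RSEM 1.3.3 gene counts in whole numbers, not normalized. Whether strand was used in counting is not given in the sources used here. Of 57126 genes, 56620 matched the GENCODE M39 annotation. Rows that matched none held at most 0.0464% of the counts of a library.

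Counts were tested with edgeR 4.0.16 in R 4.3.3 (TMM, filterByExpr, glmQLFit and glmQLFTest, two-sided, Benjamini-Hochberg over all genes tested), each mutant against MaP-/- tumors in its own fit and MaPR172H/- against MaPR245W/- tumors in a fit of all 18. The threshold was an FDR of 0.05. Intervals are 95%. DESeq2 1.42.0 was an alternative. On simulated counts with 200 changed genes, edgeR recovered 91% of them for MaPR172H/- and 84% for MaPR245W/- against MaP-/- tumors and called 9 and 7 unchanged genes. DESeq2 recovered 97.5% and 92.5% and called 65 and 77 unchanged genes. The changed genes were drawn from well-counted genes and given a change larger than the estimates of all members but Foxa1. These shares are therefore not the power to detect changes of the members. Tumors are the replicates, and those of JM663 and JM833 share a mouse, so the p-values treat 6 null tumors of 4 mice as independent.

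The members and lists were chosen with earlier results of these data known. Named genes are all members, the 2 highest and 2 lowest of each list in MaPR172H/- against MaP-/- tumors, members of a list past the threshold in MaPR245W/- against MaP-/- tumors if 5 or fewer (0 were), and the 3 nearest genes of each member; other genes past a threshold and genes given per tumor were named after their values were seen. Promoter windows of the other 3 members are not reported here.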

Additional observations from a re-analysis of the deposited data

Results flagged for a closer look

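Each member's level was examined in each genotype group for a single tumor far from the others, by the gap to the nearest tumor over the range of the group. Of 30 sets of values 5 stood out. For normally distributed values chance flags about 1 in 20. Some of these CPM values were skewed, as for Foxa1 in MaPR172H/- tumors (mean 6.02, median 2.735 CPM). That rate may therefore not hold here, and the number flagged is not read as an excess. Foxa1 was 22.2 CPM in YZ4, with the next MaPR172H/- tumor at 7.17 CPM. In MaPR245W/- tumors Foxa1 was 1.03 CPM in JM1133, with the next at 0.351 CPM. Esrp1 was 6.84 CPM in YZ7, with the next MaPR172H/- tumor at 131 CPM. In MaP-/- tumors Aldh1a3 was 163 CPM in JM663-T1, with the next at 51.5 CPM. Cd14 was 258 CPM in JM836-T1, with the next null tumor at 145 CPM.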

How the results depend on the processing

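Counts of genes past the threshold moved with the settings. For MaPR172H/- against MaP-/- tumors, 1760 genes passed, and there were 1051 with a log2 fold above 1 as well, 287 with one above 2, 3432 by DESeq2, 1059 among protein-coding genes alone, 1126 with the tumors of 1 mouse summed, 1074 without the 2 tumors of open histology, and 1067 to 1866 when each tumor was left out, lowest without JM663-T2. For MaPR245W/- against MaP-/- tumors, 0 passed, against 424 by DESeq2, 2 in 1 fit of all 18 tumors, 5 without the tumors of open histology and 0 to 3 when each tumor was left out. For MaPR172H/- against MaPR245W/- tumors, 2114 passed, against 1392 and 526 with a log2 fold above 1 and above 2, 3699 by DESeq2, 1401 with at least 10 counts in every tumor, and 875 among protein-coding genes alone. The fold limits lower a count by construction, and the cause of the other shifts was not tested.

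Of the 10 members, 1 passed in MaPR172H/- against MaPR245W/- tumors and 0 passed in the fit of the 12 tumors of both groups or with at least 10 counts in every tumor, a filter that leaves Foxa1 and Spdef untested. Leaving out each tumor gave 0 to 1. Under the alternatives other than leaving out single tumors, all members kept their direction in the 3 comparisons, and the medians by histology moved by less than 1 SD in all 60 recalculations. The order of the 2 classes was not stable, however: it turned for Kit and Cd14 with the tumors of open histology placed by the study's list, and for Gata3 with them placed by the labels. Leaving out single tumors gave 0.75 to 2.16 for Foxa1 and 0.90 to 2.40 for Spdef in MaPR172H/-, and -3.35 to -1.96 and 0.31 to 2.25 in MaPR245W/- against MaP-/- tumors. Aldh1a3 ran from 0.18 to 1.47 and from 0.31 to 1.76 there. In MaPR172H/- against MaPR245W/- tumors Ehf ran from 0.13 to 1.25, Grhl2 from 0.0083 to 0.60 and Kit from 0.043 to 0.78. In MaPR245W/- against MaP-/- tumors Ehf ran from 0.0049 to 1.13 and Elf5 from 0.022 to 0.90. Grhl2 ran from 0.093 to 0.68 and Gata3 from -0.75 to -0.097 in that comparison. For MaPR172H/- against MaP-/- tumors the range was 0.14 to 0.66 for Esrp1 and 0.48 to 1.0 for Grhl2. Leaving out single tumors also changed the sign of small log2 fold changes. Against MaP-/- tumors, MaPR172H/- gave -0.040 to 0.43 for Kit and -0.062 to 0.59 for Cd14, and MaPR245W/- gave -0.11 to 0.44 for Esrp1, -0.60 to 0.14 for Kit and -0.080 to 0.47 for Cd14. MaPR172H/- against MaPR245W/- gave -0.15 to 0.69 for Elf5, -0.086 to 0.44 for Esrp1, -0.76 to 1.39 for Spdef, -0.66 to 0.17 for Aldh1a3 and -0.31 to 0.39 for Cd14.

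Among named genes of the lists in MaPR172H/- against MaP-/- tumors, leaving out single tumors gave -1.33 to 0.28 for Aldh1a1, -0.43 to 0.61 for Aldh1a2, -1.40 to 0.22 for Areg, -0.19 to 0.18 for Cd68, -4.01 to 0.86 for Cfd, -0.049 to 0.28 for Pdgfrb, -0.76 to 3.36 for Pgr, -4.92 to 0.28 for Plin1, -0.31 to 0.083 for Qki, -0.10 to 0.30 for Rbm47, -1.79 to 0.52 for Tbx3 and -0.86 to 0.57 for Trac. The sign held but the value moved by over 1.5 times for other genes that missed the threshold, with 0.96 to 2.68 for Acta1, -1.62 to -0.40 for Cd3g, -3.18 to -1.76 for Cma1, -2.42 to -0.54 for Csn2, -2.62 to -1.61 for Cxcr2, -2.96 to -1.79 for Dcn, 1.24 to 2.11 for Gabrp, 0.94 to 2.002 for Krt7, 0.18 to 1.16 for Lbp, 1.36 to 2.95 for Myh4, -1.95 to -0.45 for Prrx1, 0.021 to 0.98 for Snai2, -1.12 to -0.23 for Tek, -1.26 to -0.47 for Tnnt3 and -2.68 to -1.48 for Tpsb2. Smaller values moved by as much, from 0.00099 to 0.37 for Klf5, 0.090 to 0.67 for Grhl1 and 0.17 to 0.71 for Ap1m2. Marveld2 ran from 0.30 to 0.96, Snai1 from 0.22 to 0.998, Col1a1 from 0.38 to 0.80 and Mylpf from 0.0070 to 0.25. Celf2 ran from -0.73 to -0.32, Mbnl2 from -0.41 to -0.11, Ly6c2 from -0.76 to -0.16 and Il7r from -0.51 to -0.049. Kdr ran from -0.31 to -0.13 and Cdh5 from -0.16 to -0.0017. Of the named genes that missed the threshold, Cldn3, Cma1, Csf3r, Cxcr2, Dcn, Fabp4, Krt14, Krt19, Ptbp1, Sox10 and Tnnt3 passed in at least 1 of these fits. Per list, 0 to 3 mast cell, 3 to 5 macrophage, 2 to 5 neutrophil and 1 to 4 fibroblast genes passed. DESeq2 gave -0.68 for Pgr. Without the tumors of open histology the values were -0.12 for Aldh1a2, 0.033 for Areg, 0.20 for Cd68, 0.15 for Qki and 0.43 for Tbx3. No paired analysis was possible because the replicate numbers follow accession order and pair no tumors across genotypes. Foxa1 and Spdef rest on few counts, down to 0, and Spdef had the largest standard error of the members in each comparison.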
